A study of Mus musculus with 10 samples.

Results

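Peaks of TET2 ChIP-seq were examined around 6 genes of the leukemia inhibitory factor (LIF) pathway in mouse embryonic stem (ES) cells. These were the receptor genes Lifr and Il6st, the kinase genes Jak1 and Jak2, the transcription factor gene Stat3 and the STAT3 target gene Pim1. Overlapping peaks of all libraries were merged into regions, and a region was given to a gene if it overlapped the gene's protein-coding span in mm10 or lay within 50 kb of it and nearest to it. The 6 genes held 41 of 79350 merged regions and 137 peaks.

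ES cells from 4 groups had been grown in serum with LIF, a GSK-3 inhibitor and a MEK1 inhibitor, and crosslinked with disuccinimidyl glutarate and formaldehyde. Wild-type (WT) cells (genotype Tet2fl/fl, no tag) and Tet2 knockout (KO) cells (Tet2-/-, no tag) were precipitated with a rabbit polyclonal antibody raised against the N-terminal part of TET2. FLAG-TET2 cells (Tet2fl/fl, with 2x-Flag tagged TET2 made from its own locus) and parental cells (Tet2fl/fl, no tag) were precipitated with FLAG M2 affinity gel. Each group had 2 libraries, each with its own peak list. Whether these came from separate cultures, whether each line was 1 clone and how Tet2 was deleted are not stated in the labels, so p-values measure the spread between these libraries, which may be technical. The WT and FLAG-TET2 lists are called target lists below, and the KO and parental lists control lists. Whether the KO cells still make the part of TET2 that the antibody was raised against is not stated in the labels.

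LIF binds its receptor, a pair of the LIFR and gp130 proteins that Lifr and Il6st encode. The receptor has no kinase activity of its own and signals through bound JAK kinases, which phosphorylate STAT3, and STAT3 dimers then enter the nucleus and bind DNA. In mouse ES cells this pathway sustains self-renewal. TET2 oxidises 5-methylcytosine, which in mammalian DNA lies mostly in CG dinucleotides.

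The lists held between 18820 and 63578 peaks for the target libraries and between 2259 and 36518 for the control libraries, on 21 chromosomes. Read depth is unknown, so a peak missing from a short list was not detected there and is not shown to be absent. Tet2 itself carried 8 and 4 peaks in WT and 0 and 1 in KO replicates 1 and 2, and 13 and 10 in tagged and 7 and 0 in parental libraries. These measure binding and do not check the deletion. Peak lists hold no expression values either. Of 5 ES cell marker genes, 3 (Pou5f1, Sox2 and Esrrb) held a region with a peak in all target lists and no control list, and of 5 fibroblast genes, which would mark feeder cells, 2 did (Col3a1 and Fn1), which is no test of cell identity.

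The DNA just before a transcription start is shown for 4 of the 6 genes, as examples of starts in a region with peaks in all 4 target lists, which Jak1 had too. Of these, 3 are rich in CG and that of Stat3 less so. The sequences come from the RefSeq promoter table (GRCm38.p6, the assembly of mm10), read 5′ to 3′ on the gene's strand, with every CG in capitals. Bases inside the gene span were left out for Stat3. The Lifr stretch lies inside the gene span, which begins upstream of both tabulated Lifr starts. The Lifr stretch is chr15:7129322-7129571 (plus strand), the Jak2 stretch chr19:29251553-29251802 (plus), the Stat3 stretch chr11:100939595-100939790 (minus) and the Pim1 stretch chr17:29490535-29490784 (plus).
Lifr: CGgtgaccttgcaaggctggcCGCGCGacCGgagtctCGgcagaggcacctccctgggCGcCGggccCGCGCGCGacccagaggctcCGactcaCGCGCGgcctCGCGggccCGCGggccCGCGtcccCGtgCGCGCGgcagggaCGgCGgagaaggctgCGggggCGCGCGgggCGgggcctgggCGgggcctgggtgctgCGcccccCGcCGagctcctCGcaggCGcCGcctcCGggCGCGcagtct
Jak2: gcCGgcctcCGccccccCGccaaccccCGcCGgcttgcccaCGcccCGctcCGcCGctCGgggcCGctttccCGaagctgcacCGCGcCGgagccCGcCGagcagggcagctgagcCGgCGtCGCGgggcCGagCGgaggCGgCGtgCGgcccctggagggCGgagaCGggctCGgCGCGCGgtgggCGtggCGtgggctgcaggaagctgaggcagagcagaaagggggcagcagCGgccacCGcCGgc
Stat3: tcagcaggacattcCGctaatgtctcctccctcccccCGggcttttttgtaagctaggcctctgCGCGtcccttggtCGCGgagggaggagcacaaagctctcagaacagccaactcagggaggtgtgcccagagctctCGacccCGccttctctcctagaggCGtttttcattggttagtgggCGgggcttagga
Pim1: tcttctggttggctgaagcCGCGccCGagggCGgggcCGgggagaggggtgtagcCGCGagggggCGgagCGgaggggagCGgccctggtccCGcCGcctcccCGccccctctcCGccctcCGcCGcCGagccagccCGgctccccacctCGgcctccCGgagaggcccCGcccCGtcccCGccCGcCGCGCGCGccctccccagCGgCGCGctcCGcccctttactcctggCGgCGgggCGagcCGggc

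These stretches hold 43 CG in 250 bases for Lifr, 37 in 250 for Jak2, 10 in 196 for Stat3 and 36 in 250 for Pim1. Over the table's 32851 promoter windows, which run from 250 bases before to 50 after a start, the median was 7 CG (quartiles 3 and 20). The whole windows of these genes held 53, 44, 15 and 42 CG, those of Il6st and Jak1 33 and 29. As many CG as Lifr were found in 0.451% of all windows and as many as Stat3 in 34.6%. The table also gives a later start for Lifr and one for Pim1, whose windows held 4 and 5 CG. The STAT motif TTCNNNGAA (its own reverse complement) was in 0 of the 8 windows of the 6 genes and in 8.30% of all windows. The octamer ATGCAAAT, searched on both strands, was in 0 of the 8 and in 1.74% of all. The ESRRB motif AAGGTCA, searched on both strands, was in 1 of the 8, at the first Lifr start, and in 4.72% of all. A window without a match says nothing of sites elsewhere in a region.

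Peaks were more numerous around Lifr and Pim1 than around the other genes. All 6 genes had a peak in every target list, with 29 and 18 peaks in WT against 0 and 4 in KO libraries, and 39 and 24 in FLAG-TET2 against 19 and 4 in parental libraries (replicate 1, then 2, here and below). Per 10000 peaks of its own list, that made 7.53 and 9.56 in WT against 0 and 3.42 in KO libraries, and 6.13 and 8.50 in FLAG-TET2 against 5.20 and 3.95 in parental libraries. Each target list was thus above each control list on this scale for the 6 genes pooled, with the narrowest gap between FLAG-TET2 replicate 1 and parental replicate 1. Lifr and Pim1 held 10 and 17 of the 39 peaks in FLAG-TET2 replicate 1. Not every gene was separated in this way. Jak2 had 4 peaks in parental replicate 1 against 3 and 3 in FLAG-TET2, and Il6st 3 in KO replicate 2 against 5 and 2 in WT. A peak lay near all 6 genes in parental replicate 1, but near 2 of them in parental replicate 2, 2 in KO replicate 2 and 0 in KO replicate 1. Of all 21887 genes, 17169 had a peak in some list. The share of all genes with a peak in each single list, or in every target list, is not given, so these member counts have no background beside them.

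**Figure D1:**
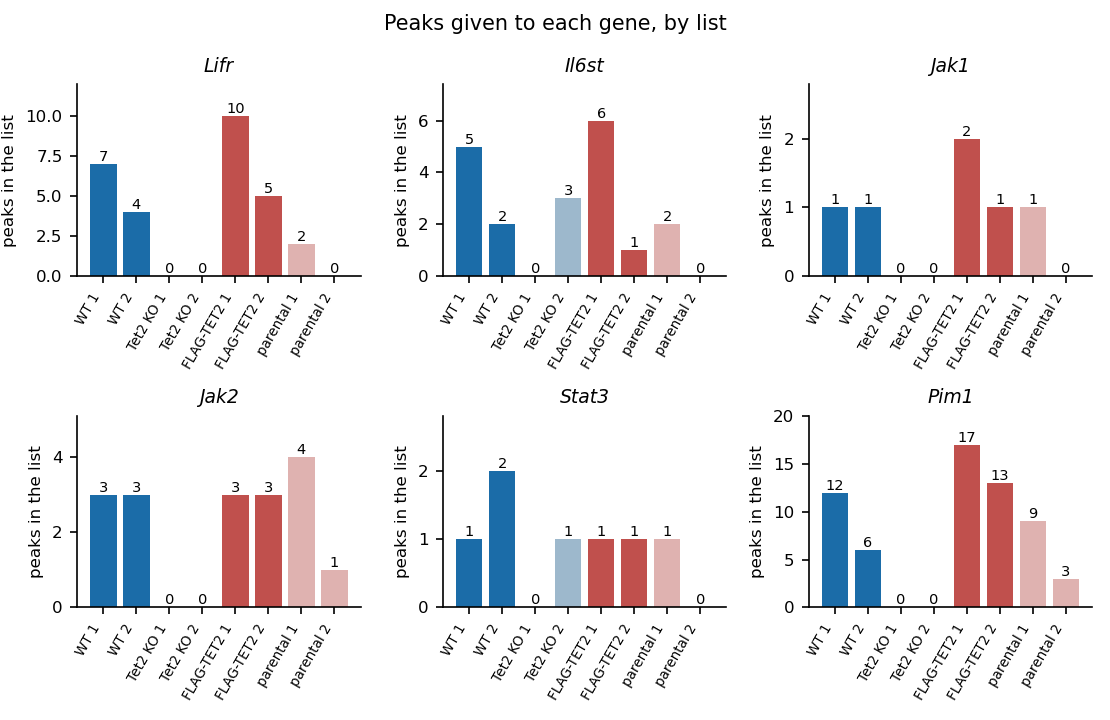
Number of peaks given to each of the 6 genes (bar height) in each of the 8 lists, with WT (blue) beside Tet2 KO (pale blue) and FLAG-TET2 (red) beside parental (pale red), replicates 1 and 2. Lifr and Pim1 have more peaks in each target list than in either control list of the same antibody, while the Jak2 bar of parental replicate 1 (4 peaks) is above both FLAG-TET2 bars (3 each).

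A region with a peak in every target list and no control peak, called a common TET2 region here, was found for 4 of the 6 genes, namely Lifr (2 regions), Il6st, Jak2 and Pim1 (1 each). Of all 21887 protein-coding genes 13.6% had one. The 5 regions were 12.2% of the 41, and common regions were 5.70% of all merged regions. Genes with more regions of any kind have a common one more often. Lifr, Il6st, Jak2 and Pim1 had 10, 5, 5 and 17 regions, and of all genes with 5 or more regions 40.4% had a common one. That class has no upper limit, so its share is not matched to genes with 10 or 17 regions. Jak1 and Stat3 had 2 regions each and no common one, and of all genes with 2 regions 7.06% had one. The count depended on the lists and the peak threshold. Without parental replicate 1, the longest control list, all 6 genes had a common region (12 regions), but so did 20.3% of all genes, and 9.21% of all merged regions were common. With peaks of −log10 q of at least 5, only Lifr and Il6st of the 6 had one, against 13.2% of all genes. With the 2259 leading peaks of each list only Pim1 did, against 1.01%.

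**Figure D2:**
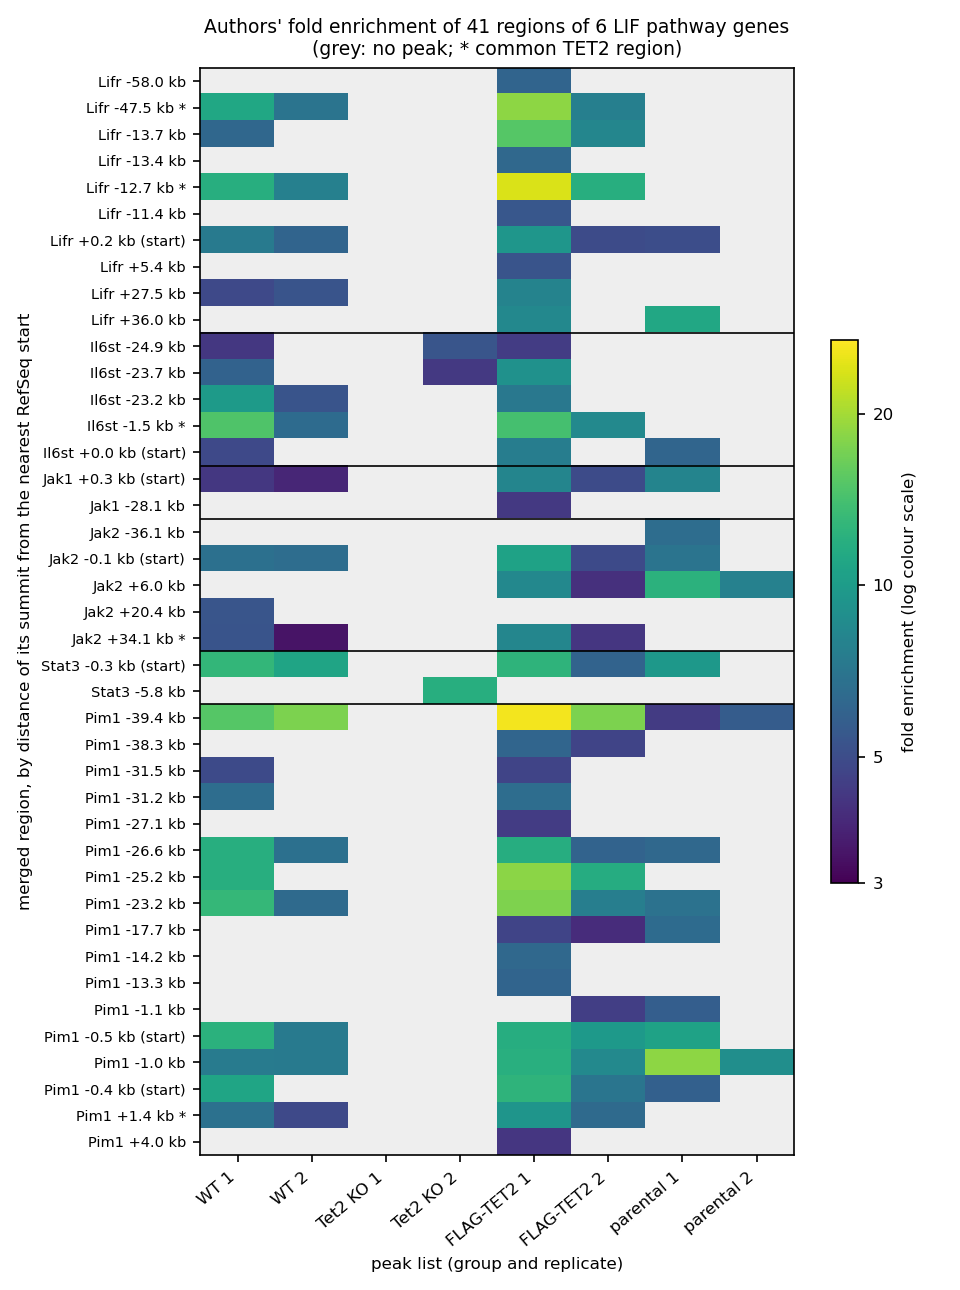
Authors' fold enrichment (colour, log scale) of the 41 merged regions (rows, by gene, with the distance of the summit from the nearest tabulated start) in the 8 lists (columns); grey means no peak, an asterisk a common TET2 region and "start" a region over a promoter window. The 7 start regions have a parental replicate 1 peak and no KO peak, and the brightest target cells are those of Pim1 at 39.4 kb and Lifr at 12.7 kb before a start.

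Lifr encodes the LIF-binding subunit of the receptor, and 2 of the 5 common regions were its own. A fold here is the authors' fold enrichment of a peak over their control track. Its scale differs between lists, with a 90th percentile of 10.1 in WT replicate 2 and 23.6 in parental replicate 2, so folds of different lists stand side by side without a test. In FLAG-TET2 replicate 1 these had the highest folds of the 5, whereas in WT replicate 1 that of Il6st was higher. One lay inside the span, 12.7 kb before the first tabulated start (chr15:7116600-7117191). Its folds were 11.9 and 7.80 in WT and 23.9 and 11.9 in FLAG-TET2 replicates 1 and 2, with no peak in KO or parental lists. Those folds ranked between the 75.2nd and the 96.5th percentile of their own lists, and the 4 summits lay within 18 bp of each other. The other lay 8.32 kb upstream of the span (chr15:7081849-7082288), with folds of 11.1 and 6.97 in WT and 18.5 and 7.73 in FLAG-TET2 replicates and summits within 27 bp. Both reagents thus placed the summits of each region close together. Another region lay 13.7 kb before the start, near the first. Its folds were 6.27 in WT replicate 1 and 15.2 and 8.20 in FLAG-TET2 libraries, with no peak in WT replicate 2 or any control list.

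Of the other 7 Lifr regions, 4 had a single peak, in FLAG-TET2 replicate 1. One at 36.04 kb after the nearest start had folds of 8.36 in FLAG-TET2 replicate 1 and 11.2 in parental replicate 1, at the 65.9th and 83.5th percentile of their lists. Over all its regions Lifr had 7 and 4 peaks in WT against 0 and 0 in KO, and 10 and 5 in FLAG-TET2 against 2 and 0 in parental replicates.

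Il6st encodes gp130, the signal-transducing subunit shared by the receptors of the IL-6 family. Its common region lay 1.21 kb upstream of the span (chr13:112462337-112462859), with folds of 14.8 and 6.47 in WT and 14.1 and 8.43 in FLAG-TET2 replicates 1 and 2 and no control peak. The summits lay between 1409 and 1474 bp before the start. This was the only common region of the 6 genes within 2 kb upstream of a span. Another 3 regions lay together 23.0 to 24.3 kb upstream. In one of them (chr13:112440631-112441062) the folds were 9.95 and 5.31 in WT and 7.24 in FLAG-TET2 replicate 1, with no control peak. At chr13:112439038-112439727 the folds were 4.27 in WT replicate 1, 5.35 in KO replicate 2 and 4.42 in FLAG-TET2 replicate 1. At chr13:112439934-112440577 they were 5.98, 4.31 and 9.13 in the same lists, so both regions held a WT, a KO and a FLAG-TET2 peak. Il6st had 5 and 2 peaks in WT against 0 and 3 in KO, and 6 and 1 in FLAG-TET2 against 2 and 0 in parental replicates, so the groups overlapped with both reagents.

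Jak1 and Jak2 encode the tyrosine kinases that the LIF receptor is known to use, Jak1 being the main one for gp130. Jak1, with a span of 113 kb, had 1 region apart from that at its start, a peak in FLAG-TET2 replicate 1 alone (fold 4.33, 27.9 kb upstream). Jak2 had a common region 34.1 kb after its start, inside the span (chr19:29285662-29285967). It was the weakest of the 5, with folds of 5.29 and 3.36 in WT and 8.26 and 4.24 in FLAG-TET2 libraries. The WT replicate 2 peak was at the 1.44th percentile of its list. Another Jak2 region, 5.95 kb after the start (chr19:29257649-29257897), showed folds of 8.36 and 4.08 with tagged cells against 12.4 and 7.86 with parental cells, and no peak with the TET2 antibody. The percentiles within their lists were 65.9 and 5.88 with tagged and 86.6 and 56.1 with parental cells.

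Stat3, the transcription factor of the pathway, had 1 region with target peaks, at its start. Its second region, 5.58 kb upstream of the span, was a peak of KO replicate 2 alone, with a fold of 11.9.

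Pim1 encodes a serine/threonine kinase and is a STAT3 target gene, and around its 5.33 kb span lay 17 regions, a number that 1.55% of all genes reached. It had 12 and 6 peaks in WT against 0 and 0 in KO, and 17 and 13 in FLAG-TET2 against 9 and 3 in parental replicates. Of its regions 12 lay upstream of the span, 4 over it and 1 downstream, and 17.6% of all genes had as many regions over their span. The 17 are regions of any kind. Of them 8 held a control peak and 4 had a FLAG-TET2 replicate 1 peak alone, counts with no share of all regions beside them. Only 1 region (5.88%) was common, against 5.70% of all merged regions. The common one lay 1.45 kb after the second start (chr17:29494414-29494778), with folds of 6.80 and 4.87 in WT and 9.43 and 6.42 in FLAG-TET2 replicates.

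The highest target folds of all 41 regions were found 38.7 kb upstream of Pim1 (chr17:29450755-29452100), which was also the region farthest from its gene. They were 15.1 and 17.6 in WT and 26.1 and 17.5 in FLAG-TET2 replicates 1 and 2, from the 94.3rd to the 99.4th percentile of their lists. This region is not common by the rule, because both parental lists had a peak there, with folds of 4.40 and 5.69 at the 6.77th and 24.0th percentile. The KO lists had none. The nearest region beyond the 50 kb limit with one of the 6 as its nearest gene lay 51.0 kb from Pim1, with a fold of 4.28 in WT replicate 2 and 6.47 in FLAG-TET2 replicate 1.

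Between the distal region and the gene, 2 more Pim1 regions had a peak in every target list and one in parental replicate 1. At 26.6 kb before the start the folds were 11.9 and 6.73 in WT, 11.8 and 6.06 in FLAG-TET2 and 6.32 in parental replicate 1. At 23.2 kb they were 13.02 and 6.39 in WT, 17.6 and 7.66 in FLAG-TET2 and 6.88 in parental replicate 1. Between them a region at 25.2 kb had no control peak and folds of 11.9 in WT replicate 1 and 18.4 and 11.7 in FLAG-TET2 replicates. A region between both Pim1 starts (chr17:29491625-29492240) had a peak in every list but those of KO cells. Its folds were 12.02 and 8.43 with tagged against 18.5 and 8.87 with parental cells, and 7.46 and 7.38 in WT cells.

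**Figure D3:**
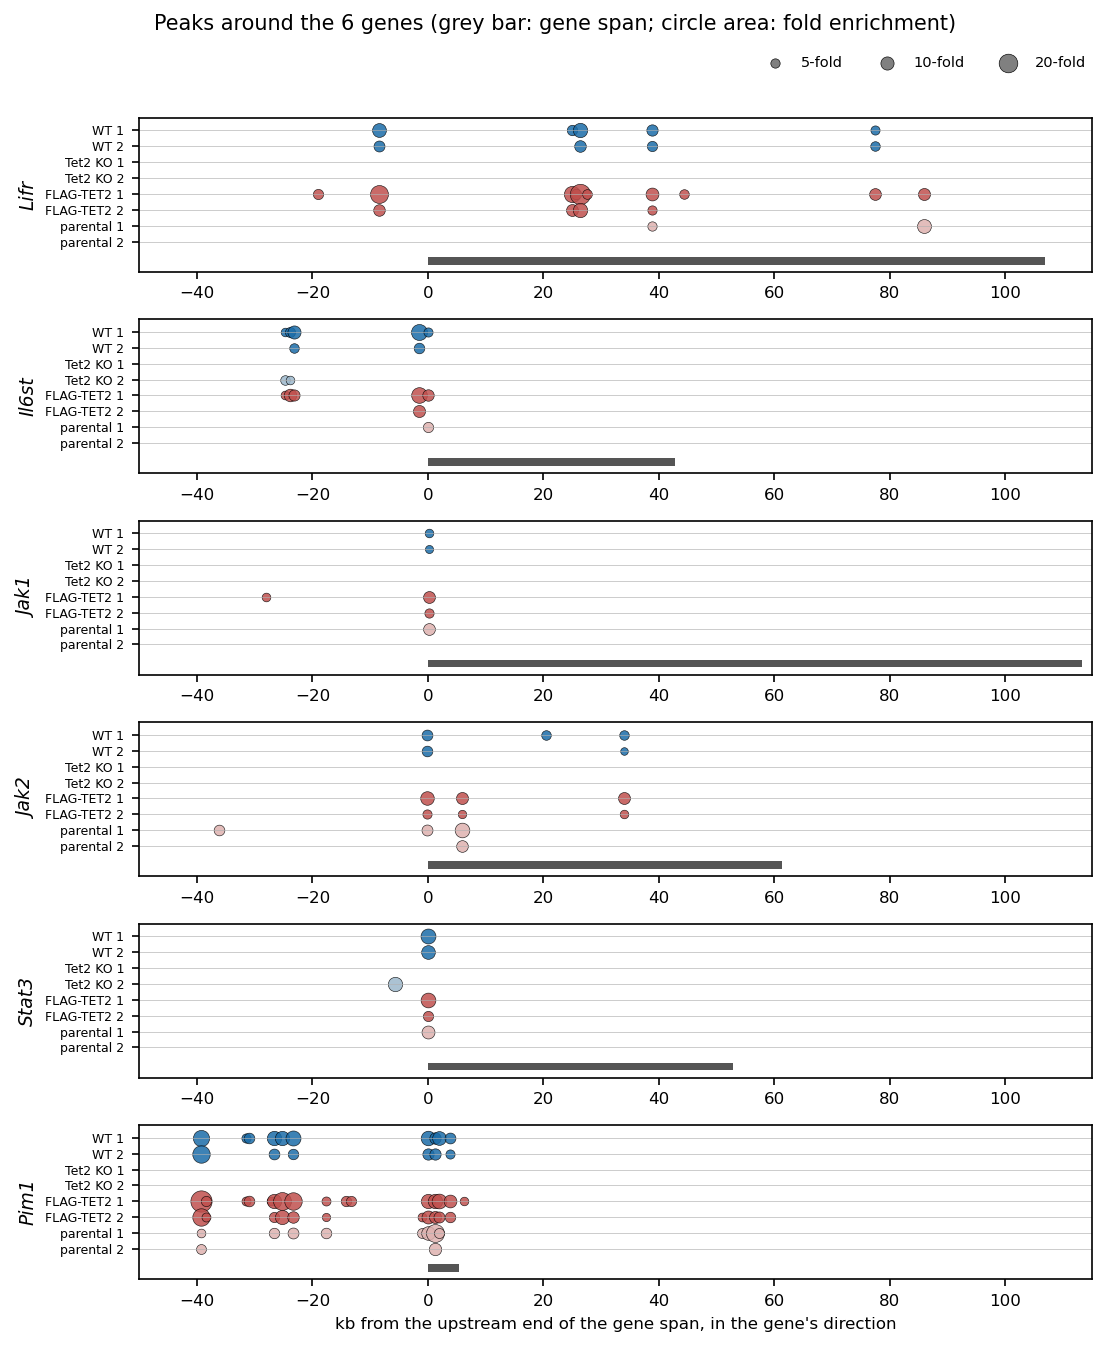
Peaks of the 8 lists (rows, circle area proportional to the authors' fold) by distance in kb from the upstream end of each gene span (grey bar), in the gene's direction, with WT and Tet2 KO in blue and pale blue and FLAG-TET2 and parental in red and pale red. Target circles gather at the upstream ends of the spans, inside Lifr, and upstream of Pim1 and Il6st; the KO rows hold peaks near Il6st and Stat3 alone.

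At the starts, WT cells had peaks that KO cells did not, but parental cells had peaks there too. A promoter window was under a peak in both WT lists and in neither KO list for 5 of the 6 genes (all but Il6st, which had a WT replicate 1 peak), against 16.3% of all 17492 genes with a window. In all 4 target lists it was under a peak for Jak1, Jak2, Stat3 and Pim1, 4 of the 6 against 19.7% of all genes. A KO peak was in 0 of the 6 and in 16.7% of all genes. A parental replicate 1 peak was in the windows of Il6st, Jak1, Jak2 and Pim1, 4 of the 6, against 32.8% of all genes. Among genes with a window under a peak in all 4 target lists it was in 3 of the 4 windows, all but Stat3, against 79.8% of all such genes. Parental replicate 1 had the longest control list (36518 peaks) and KO replicate 1 the shortest (2259), and the part of list length in these counts was not tested. Parental replicate 2 had no peak in any of the windows.

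At the starts of Stat3, Jak1 and Lifr, the summits of the lists lay at different places. Some target and control summits lay close together at other starts. At Jak2 the highest WT replicate 2 summit lay 121 bp and a parental replicate 1 summit 107 bp before the start. At Il6st a FLAG-TET2 replicate 1 summit lay 262 bp and a parental replicate 1 summit 266 bp before it. Stat3 had the highest WT folds of the start regions (chr11:100939043-100940014), 12.9 and 10.8, with 12.5 and 6.06 in FLAG-TET2 and 9.66 in parental replicate 1. There the highest target summits lay 284 and 270 bp before the start in WT and 260 and 248 bp before it in FLAG-TET2 replicates, whereas the parental summit lay 297 bp after it. The peak of parental replicate 1 did not reach the promoter window, and a second, lower WT replicate 2 peak lay 221 bp after the start. With 200 bp windows around summits in place of whole peaks, Stat3 joined the genes with a common region, 5 of 6 in all. The share of all genes with summit windows is not given, so this count has no background beside it.

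At Jak1 (chr4:101264695-101265519) the summits lay 149 and 117 bp before the start in WT and 279 and 5 bp after it in FLAG-TET2 replicates, and the parental replicate 1 summit lay 130 bp after it. Its folds were 4.28 and 3.81 in WT, 8.18 and 4.97 in FLAG-TET2 and 8.07 in parental replicate 1. The FLAG-TET2 summits at Jak1 were thus after the start, as the parental summit was, but that of replicate 2 by only 5 bp. At the first Lifr start (chr15:7128812-7130091) the highest WT summits lay 17 and 20 bp before the start, and a second WT replicate 1 peak of nearly the same fold (6.55) had its summit 356 bp after it. The FLAG-TET2 summits lay 204 and 422 bp after the start and the parental replicate 1 summit 290 bp after it, so WT replicate 1 had peaks on both sides. The Lifr folds were 7.39 and 6.12 in WT, 9.52 and 4.97 in FLAG-TET2 and 5.04 in parental replicate 1.

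At the Jak2 start (chr19:29251080-29252290) the folds were 6.78 and 6.56 in WT, 10.6 and 4.93 in FLAG-TET2 and 6.96 in parental replicate 1. At the first Pim1 start (chr17:29489871-29491590) they were 12.2 and 7.39 in WT, 11.8 and 9.73 in FLAG-TET2 and 10.7 in parental replicate 1. The Il6st start (chr13:112463683-112464411) had target peaks in the first replicates alone, with 4.86 in WT replicate 1, 7.60 in FLAG-TET2 replicate 1 and 6.12 in parental replicate 1. At each gene's first start the parental replicate 1 fold was below that of FLAG-TET2 replicate 1. It was above that of FLAG-TET2 replicate 2 at each of the 5 where that list had a peak, so the FLAG groups overlapped in fold. By percentile within the lists, parental replicate 1 stayed above FLAG-TET2 replicate 2 at Jak1, Jak2 and Stat3. It was below at Lifr (14.4 against 20.6) and Pim1 (81.4 against 82.2). Taking only the highest peak of each target list, the summits within a start region were spread over 36 to 505 bp. Those within the 5 common regions were spread over 18 to 121 bp. The start regions were also wider, 729 to 1720 bp against 306 to 592 bp, which allows a wider spread.

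**Figure D4:**
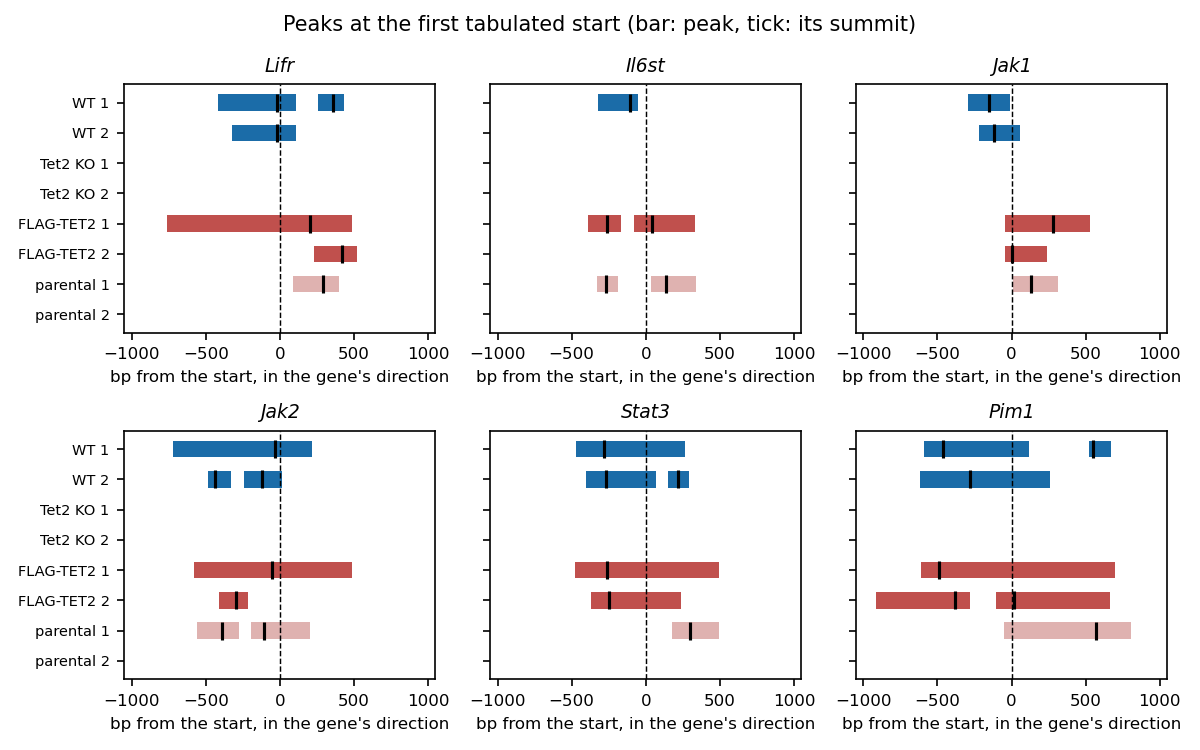
Peaks (bars) and summits (black ticks) of the 8 lists within the region at the first tabulated start of each gene, in bp from that start (dashed line) in the gene's direction; WT and Tet2 KO rows are blue and pale blue, FLAG-TET2 and parental rows red and pale red. At Stat3 the highest target summits lie before the start and the parental summit after it, while at Jak1 the FLAG-TET2 and parental summits lie after the start.

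The number of peaks per gene was compared between target and control lists as log2(peaks + 1). The exact permutation test was two-sided, permuted lists within each antibody and covered all 17169 genes with a peak. The mean difference was 2.45 for Lifr and 2.29 for Pim1, each with an exact permutation p = 0.0556, the smallest that the 36 arrangements of 4 against 4 lists can give (adjusted p = 0.467 for both, Benjamini-Hochberg over all genes). For these 2 genes each target list held more peaks than either control list of the same antibody, which 11.9% of all genes tested showed. Without parental replicate 1 it was 4 of the 6 (Jak1 and Jak2 joined), against 27.9% of all genes. For Jak2 and Il6st the differences were 1.17 and 1.10 (exact p = 0.167 and 0.278), and for Jak1 and Stat3 0.896 and 0.646 (exact p = 0.111 and 0.333). The median over all genes was 0.580. The design cannot pass a threshold of 0.05 for any gene, so 0 genes passed it with or without adjustment, and the target lists were longer as a whole.

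By antibody, the differences between WT and KO were 2.66 for Lifr, 3.25 for Pim1, 2.00 for Jak2, 1.08 for Il6st, 1.00 for Jak1 and 0.792 for Stat3. Between FLAG-TET2 and parental cells they were 2.23, 1.33, 0.339, 1.11, 0.792 and 0.500 for the same genes. With 2 lists against 2 the smallest possible exact p is 0.333, and the difference between the antibodies was not tested.

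Other genes of the pathway were taken from lists by role, 60 genes that all matched the gene table, of which 20 (33.3%) had a common region, or 30 without parental replicate 1. The shares of all genes were 13.6% with all lists and 20.3% without that one. Of the 31 pathway genes with 5 or more regions 18 had a common one, against 40.4% of all such genes, again not matched by number of regions. Of 12 further IL-6 family ligands and receptors 3 had one: Osm, Il6ra with 2 regions, and Lif itself. At Osm, in a region 5.17 kb away, the folds were 10.6 and 7.68 in WT and 14.1 and 9.45 in FLAG-TET2 replicates. Of 8 other JAK and STAT genes 3 had one, namely Jak3, Tyk2 and Stat6. In Jak3 the folds were 10.5 and 9.88 in WT and 12.4 and 9.13 in FLAG-TET2 replicates. Of 8 adaptor and phosphatase genes 3 had one, namely Gab1, Grb2 and Ptpn1, and of the PIM kinase genes Pim2 and Pim3 none did.

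Among 12 feedback inhibitors Socs3, which encodes an inhibitor that binds gp130 and JAK, was the only one with common regions, 7 of its 21 regions. The leading one lay 2.18 kb away and reached folds of 16.2 and 11.9 in WT and 25.9 and 14.3 in FLAG-TET2 replicates. Of 18 genes listed here as STAT3 targets in ES cells 10 had a common region, and whether STAT3 acts on each was not tested. All 10 were among the 16 with 5 or more regions, for which the share of all genes was 40.4%. These 10 genes held 6 to 24 regions, and that share is not matched by number of regions. Sgk1 and Tfcp2l1 had 4 each, Mcl1 3, and Klf5, Bcl2l1 and Tbx3 2 each, while Klf4, with 17 regions, had none. In the leading region of Tfcp2l1, a naive-state transcription factor gene, the folds were 12.8 and 8.01 in WT and 20.4 and 13.1 in FLAG-TET2 replicates. These lists were described by counts alone.

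The genes whose highest folds over the 8 lists were nearest to those of each member (Euclidean distance of log2(fold + 1), 0 where there was no peak) were found for the 4 members with a common region. They were Cwf19l2, Stk3 and Kctd14 for Lifr (distances of 0.303 to 0.384), Gramd2, Dpp4 and Prtg for Il6st (0.288 to 0.377), Ube2d3, Cacul1 and Zc3h7b for Jak2 (0.252 to 0.328) and Nlrc4, Deptor and Wbp11 for Pim1 (0.674 to 0.712). Pim1 had the more distant neighbours.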

How the data were processed

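Per the submitters' processing notes, the tools were Bowtie2, Trimmomatic, MACS2, DESeq2 and DiffBind, and the build was mm10; versions and roles are not given there. Each deposited list holds the peaks of 1 library, whose peak names hold rmDUP, rmChrM, IgG and q10. Per peak, the deposited lists give the authors' score, fold enrichment over their control track (a linear ratio), −log10 p and −log10 q and the summit offset. These deposited values (score, fold, −log10 q) served to describe, rank and filter peaks inside 1 list; folds of several lists are given side by side as description, since their scales differ. No read counts were used, and depth is unknown. Input and IgG libraries were not analysed here.

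Peaks on 21 chromosomes were joined into regions on any overlap of 1 bp or more (pandas 2.3.3, NumPy 2.4.6, Python 3.11.15). Where a region held several peaks of a list, the highest fold is given. Spans came from 21887 protein-coding genes and starts from 32851 RefSeq promoter windows of GRCm38.p6, which give no exons, so exonic or intronic position is not stated. A further 23 regions within 50 kb of a member span lay nearer to, or within, another gene and were left out. Peak numbers were compared by exact permutation with Benjamini-Hochberg adjustment over all genes, in code checked on simulated data. Alternatives were a stricter threshold, summit windows, shortened lists, other gene windows, another pseudocount, a replicate block and leaving out each library. The members, lists and rules were chosen with earlier results of these data known. Named regions were by rule the common ones, each gene's leading one and those with 2 or more control lists, and of each pathway list up to 4 genes with the most common regions; other named regions, those at starts included, and Klf4, Bcl2l1 and Tbx3, were chosen after their values were seen. Regions are no replicates.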

Additional observations from a re-analysis of the deposited data

How the results depend on the processing

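With peaks of −log10 q of at least 5, 2 members (Lifr and Il6st) and 3 of their regions were common, and 2 promoter windows had a peak in all 4 target lists. With the 2259 leading peaks of each list, 1 member (Pim1) had a common region, 1 region in all, and 1 member had more peaks in each target list than in either control list. Within 10 kb of the gene and over the span alone that last count was 1 each, and 3 common regions overlapped a span. For these settings, shares of all genes are given only for genes with a common region, at the stricter threshold and with shortened lists. The other counts here have no background beside them. Leaving out each library in turn gave 4 to 6 members with a common region, 5 to 12 such regions, 20 to 30 pathway genes with one, 2 to 4 members with more peaks in each target list, 5 to 6 promoter windows with WT and no KO peaks and 4 to 5 with all target peaks, the highest without parental replicate 1, except for the promoter windows (without WT replicate 2 and without FLAG-TET2 replicate 2). Of 83 counts recomputed 72 stayed within 1.5 times. Part of the 72 could not change. The number of genes passing the adjusted threshold is 0 in every setting by design. Promoter counts also stay the same when a list that they do not use is left out. The 72 is therefore no measure of stability. Of 81 target minus control differences of single genes 80 kept their direction and 1 was 0 (Stat3 with shortened lists). Lifr, Jak1 and Jak2 had no peak in the shortened lists and so gave no value there. The cause of the changes was not tested beyond the fewer peaks or lists that each alternative uses.

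The replicate numbers were not taken to pair the libraries, since the labels name no shared batch and the correlations differed in sign. Over 17169 genes, deviations of same-numbered libraries correlated at -0.107 between WT and KO, at 0.202 between FLAG-TET2 and parental cells and at 0.177 between WT and FLAG-TET2 cells. With a replicate block, 0 genes passed the adjusted threshold in the exact test, as without it and with the KO numbers crossed, and p was 0.125 for Lifr and Pim1, the smallest that 16 sign changes can give. The crossed pairing, the promoter counts, the count of members with more peaks and the pathway count without each library were chosen after seeing the data. Depth, which is unknown, limits every missing peak.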
